A study of Mus musculus with 51 samples.

Results

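*Foxd3* encodes a forkhead transcription factor and is 1 of the 34 pluripotency and differentiation factors for which the authors deposited expression values of a mouse embryonic stem cell (mESC) differentiation. It is 1 gene of the 35591 in the accompanying count table. It was chosen by its deposited values at day 0 and day 4, since its level fell more between these days than that of any other of the 34 factors, in both genotypes. That fall is therefore described here without a test, and tests were kept for the days between, for the genotypes and for the lines grown in 2i + LIF. In the GRCm38 build the gene is annotated on chromosome 4 from 99656299 to 99658622, on the plus strand, as a single exon of 2324 bases that holds the coding sequence and both untranslated regions.

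The cells were male mESCs of C57BL/6/Cast F1 crosses. *Smchd1* wt cells carried Smchd1[fl/+] and served as controls, and *Smchd1* mat del cells carried Smchd1[del/+] after deletion in the oocyte by Zp3-Cre, a Cre active in growing oocytes, so that mat del cells lacked the maternal supply of SMCHD1 and kept a paternal allele. The time course held 45 RNA-seq libraries. Day 0 was in DMEM with LIF, days 1 and 2 followed in N2B27 medium with FGF, day 2.5 came 12 h after the Wnt agonist CHIR99021 was added at day 2, day 3 was under the same agonist, and day 4 came a day after the addition of GDF11, on a path towards neuromesodermal progenitors. Each genotype and day had 4 libraries, except wt day 1, mat del day 0 and mat del day 2.5 with 3. By the labels, line 1 gave replicates 1 to 3 and line 2 gave replicate 4, but the study describes technical replicates of 2 lines, so how libraries fall into lines is not settled and p-values measure the spread between these libraries, part of which is technical. A further 6 lines, 3 per genotype, were sequenced in 2i + LIF, which holds mESCs in the naive state with 2 kinase inhibitors and leukaemia inhibitory factor.

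FOXD3 is a nuclear protein that binds DNA through its forkhead domain and can act as a repressor or as an activator. In the mouse it is needed for the epiblast and for self-renewal of pluripotent stem cells, and it acts at the enhancers of pluripotency genes as cells leave the naive state. Its transcripts are lost from the epiblast during gastrulation and return in premigratory neural crest, a lineage whose specifier genes were not among the 34 factors.

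Values are log2 RPKM, in which reads are scaled to the exon length in kilobases and to the depth in M reads (M, mega). Correction for exon length turned all 736 values under 200 reads into whole reads within 0.02 of a read, which gave the reads behind each value and an implied depth of 1.47 to 127 M reads per library. A gene without reads carries the value of 0.9 reads, so its log2 RPKM falls as depth rises. Of the 45 libraries, 4 stood apart. In mat del day 1 replicate 4 all 17 factors outside chromosomes 1 to 8 had 0 reads, against at most 6 of 17 in any other library, while *Foxd3*, on chromosome 4, had 54 reads. Replicate 3 of wt day 2, of mat del day 0 and of mat del day 2.5 had gene counts that summed to only 0.261 to 0.300 of the implied depth, against 0.804 to 0.975 in the other 4 libraries whose counts carry the same name, and *Pou5f1* was lowest there in each group, at log2 RPKM of 4.88, 4.77 and 4.42. This share could be taken only in the 7 libraries whose factor reads all equalled the counts of the same name. The other 38 were not checked by it, so leaving out the 4 may not remove every such library. Tests on the time course, timing shares and correlations are given with and without these 4 libraries, while group means, rates and read ratios use all libraries. Of the 45 libraries, 38 had factor reads that did not equal the counts of the same name (35 equalled counts of another name and 3 equalled no column), so counts of the time course were not used, and the log2 RPKM values were taken under their own names.

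*Foxd3* was highest at day 0 and lower on each following day up to day 2, in both genotypes, and was nearly without reads from day 3. At day 0 the wt libraries lay at log2 RPKM of 3.33, 2.07, 3.17 and 3.45 in the order of their replicates, from 462, 306, 335 and 152 reads. The mat del libraries lay at 2.94, 2.08 and 2.00, from 218, 38 and 249 reads. The genotypes overlapped, with the highest values in wt replicates 4 and 1. As a rate in RPM, reads per M reads of depth, this was 19.9 ± 6.98 (SD, n = 4) in wt and 12.3 ± 4.78 (SD, n = 3) in mat del cells.

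At day 1, after a day of FGF without LIF, wt replicates 1, 2 and 4 had log2 RPKM of 2.51, 1.94 and -1.15, the last from 4 reads. In mat del cells the values were 2.57, 1.58, 0.81 and 1.23, and the last is the library without reads on other chromosomes, whose total held chromosomes 1 to 8 alone (a median share of 0.46 of all counts in the other count columns). A single wt library, replicate 4, thus lay below all the others. The mean rate was 39.0% of that of day 0 in wt and 61.4% in mat del cells.

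At day 2 the libraries of each genotype split. In wt cells replicates 1 and 2 had log2 RPKM of 0.97 and 1.72, while replicates 3 and 4 had -2.64 and -2.79, from 5 reads and 0 reads. In mat del cells replicates 1 and 2 lay at 0.84 and 1.53, and replicates 3 and 4 at -1.03 and -2.30, from 18 and 60 reads, the latter at the depth of 127 M reads. Replicates 1 and 2 were thus above 3 and 4 in both genotypes, and the same order held for 12 of the other 33 factors, among them *Pou5f1*, *Sall4*, *Tbra* and *Cdx2*. The mean rate was 15.8% of day 0 in wt and 25.4% in mat del cells.

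**Figure D1:**
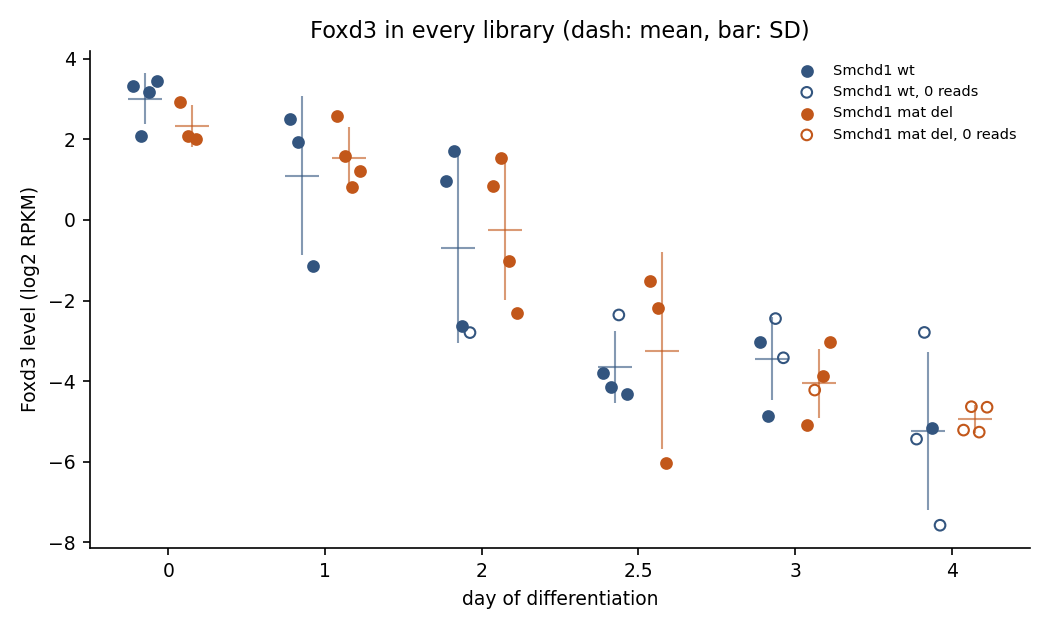
*Foxd3* level (log2 RPKM) in each of the 45 libraries by day of differentiation, wt in blue and mat del in orange, with the group mean (dash) and SD (bar); open circles are libraries with 0 reads, drawn at the value of 0.9 reads. Levels at days 0 and 1 lie above 0 in all libraries but 1, the day 2 libraries split, and 7 of the 8 day 4 libraries are open circles.

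At day 2.5, within 12 h of the Wnt agonist, few *Foxd3* reads were left. The wt libraries held 5, 5, 0 and 2 reads, at log2 RPKM of -3.79, -4.13, -2.36 and -4.33. The mat del libraries held 26, 22 and 1 reads, at -1.51, -2.19 and -6.03, the last in a library that stood apart. Replicates 1 and 2 of the mat del cells were above every wt library. In wt cells the mean rate was 0.104 ± 0.0726 RPM (SD, n = 4), 30.3-fold under that of day 2, and in mat del cells it was 0.453 ± 0.393 (SD, n = 3), 6.89-fold under.

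At day 3 the wt libraries held 15, 3, 0 and 0 reads and the mat del libraries 3, 0, 1 and 1. At day 4 all 8 libraries together held 1 *Foxd3* read, in wt replicate 3. Pooled over its 4 libraries and 109 M reads, wt day 4 had 1 read against 1255 reads in 73.0 M reads at day 0, a ratio of rates of 1868 with a 95% exact counting interval of 335 to 73846. Mat del day 4 had 0 reads in 48.6 M reads, which allows up to 0.0618 RPM, so the rate was at least 191-fold lower than at day 0 (with 3 reads over the group as the floor). The interval and the floor cover counting error alone, and since these days chose the gene they are no test of the fall. Of the 109 M reads of wt day 4, 73.9 M came from replicate 4. In bulk RNA, fewer cells with *Foxd3* and less *Foxd3* RNA per cell cannot be told apart.

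The day 4 log2 RPKM values of *Foxd3* are thus mostly set by depth. Of the 45 libraries 12 had 0 reads, all from day 2 on. Among the day 4 libraries the deepest, wt replicate 4 with 73.9 M reads, had the lowest value, -7.58, and the shallowest, wt replicate 2 with 2.68 M reads, had the highest, -2.79, both from 0 reads.

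**Figure D2:**
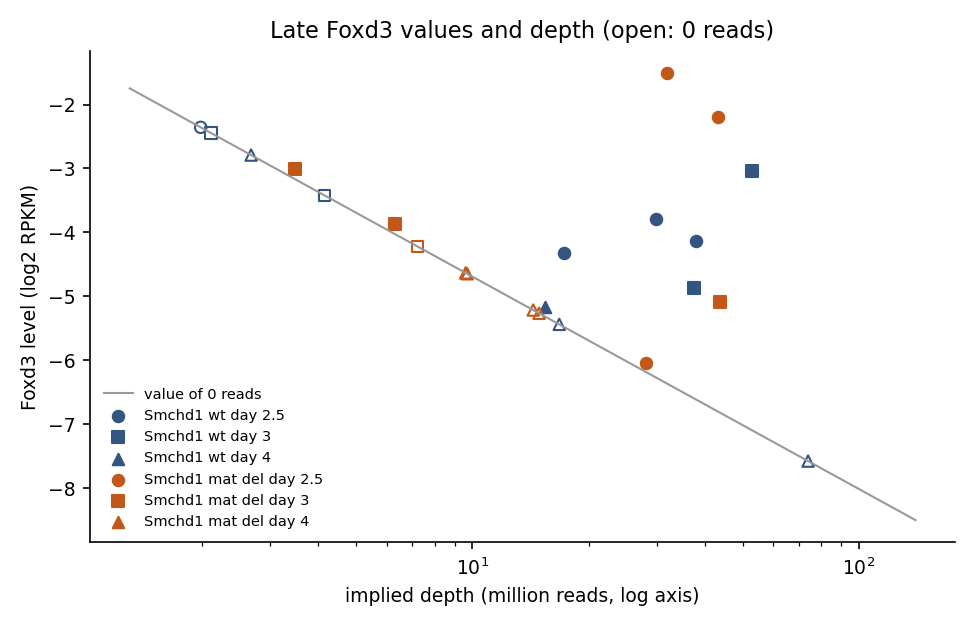
*Foxd3* level (log2 RPKM) of each library of days 2.5, 3 and 4 against its implied depth (M reads, log axis), wt in blue and mat del in orange; circles are day 2.5, squares day 3, triangles day 4, open symbols have 0 reads, and the line is the value that 0 reads give. All day 4 libraries lie on or just above the line, and the points well above it are 5 of the 7 day 2.5 and 3 of the 8 day 3 libraries with at least 17.3 M reads each.

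Ordered by group mean, *Foxd3* was highest at wt day 0 (3.01 ± 0.63, SD, n = 4, log2 RPKM) and then at mat del day 0 (2.34 ± 0.52, SD, n = 3), and each of these differed from the next group by slightly more than the larger SD. Mat del day 1 (1.55 ± 0.75, SD, n = 4), wt day 1 (1.10 ± 1.97, SD, n = 3), mat del day 2 (-0.24 ± 1.75, SD, n = 4) and wt day 2 (-0.69 ± 2.37, SD, n = 4) followed. Neighbours in the run from mat del day 1 to wt day 2 differed by no more than the larger of their SDs. A gap of 2.56, larger than the SDs on either side, then led to mat del day 2.5 (-3.25 ± 2.44, SD, n = 3), wt day 3 (-3.44 ± 1.03, SD, n = 4), wt day 2.5 (-3.65 ± 0.89, SD, n = 4) and mat del day 3 (-4.05 ± 0.86, SD, n = 4), which again did not differ beyond their spread. The day 4 groups were last, 0.89 lower (-4.94 ± 0.35 in mat del and -5.24 ± 1.96 in wt, SD, n = 4 each), at values set by depth. The gap of 2.56 did not hold in mat del cells without the 4 libraries that stood apart. Their means were then -0.24 at day 2 and -1.85 at day 2.5, and this step of -1.61 was within the SD of 1.75 at mat del day 2.

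The values of days 1, 2, 2.5 and 3 were not those that chose the gene, so the steps between these days were tested. The test was an exact two-sided permutation test within genotypes, with Benjamini-Hochberg adjustment over the 3 steps. These steps are still parts of the fall that chose *Foxd3*. Falling, and falling more than other factors, in some of them was thus partly built in by the choice. From day 2 to day 2.5 *Foxd3* fell by 2.99 on the log2 scale as the mean of both genotypes (exact test, adjusted p = 0.0245), by 2.97 in wt and by 3.01 in mat del cells. From day 1 to day 2 the mean step was -1.79 (adjusted p = 0.114, exact test), and from day 2.5 to day 3 it was -0.30 (adjusted p = 0.684, exact test). The fall after day 2 rested on few libraries. Without the 4 that stood apart it was -2.62 (exact test, adjusted p = 0.08), and leaving out wt day 2 replicate 1 or 2, wt day 2.5 replicate 2 or 4, or mat del day 2.5 replicate 2 or 3, each in turn, gave adjusted p between 0.0539 and 0.0743, with steps of -3.25 to -2.29. The size depends on how 0 reads are scaled, and it was -0.86 when 1 was added to each RPKM before the log2 (exact test, adjusted p = 0.0441).

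The question of timing is how this step compares with the other factors over the same 12 h. Within each library the log2 RPKM of another factor was subtracted from that of *Foxd3*, and the step of this difference was tested as above, over 33 factors and 3 steps together. From day 2 to day 2.5 *Foxd3* moved down relative to 28 of the 33 factors (84.8%; adjusted p at most 0.05). Without the 4 libraries that stood apart it did so relative to 20, all of them among the 28. All 33 differences were negative, for a gene chosen by the size of its fall. They share the same *Foxd3* values, and a difference can also come from a rise of the other factor. Among the 16 other factors that fell over the whole course, *Nanog*, *Pou5f1*, *Esrrb*, *Klf2*, *Klf4* and *Sall4* differed with and without the 4 libraries. *Zfp42*, *Gdf3*, *Nr0b1*, *Tfcp2l1* and *Pecam1* differed with all libraries alone.

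The 10 widest differences were to factors that had steps from 4.10 to 8.91. *Tbra*, the file's name for the mesoderm gene *T*, had a mean step of 8.91, so that *Foxd3* moved by -11.90 relative to it (exact test, adjusted p = 0.00505, and 0.0236 without the 4 libraries). *Cdx2*, a homeobox gene of the posterior axis, had a step of 6.24, *Wnt5b*, a Wnt ligand, of 4.68, and *Dkk1*, a secreted Wnt inhibitor, of 5.25. *Foxd3* moved by -9.23, -7.66 and -8.23 relative to these 3. The others of the 10 were *Cdx1*, *Nkx1-2*, *Fgf8*, *Wnt3a*, *Wnt5a* and *Axin2*, and each of the 10 differed from *Foxd3* with and without the 4 libraries. The Wnt ligands *Wnt7b* and *Wnt4* were not among them, with steps of 0.59 and -0.48 (differences -3.57 and -2.50).

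Several core and naive factors also differed from *Foxd3* in this step. *Nanog*, a homeobox factor of the pluripotency core, had a step of 1.51, a difference of -4.50 from *Foxd3* (exact test, adjusted p = 0.00505, and 0.0236 without the 4 libraries). For *Klf2*, *Klf4* and *Esrrb*, factors of the naive network, the steps were 0.25, 0.94 and 0.46, and each of them differed from *Foxd3* with and without the 4 libraries. *Klf5*, of the same network, had a step of 0.54 and differed with all libraries (adjusted p = 0.0231, exact test) but not without the 4 (adjusted p = 0.0686, exact test). *Pou5f1*, which encodes OCT4, had a step of -0.18 and differed from *Foxd3* by -2.80 (exact test, adjusted p = 0.011, and 0.0492 without the 4 libraries).

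The 5 factors for which the difference did not pass were *Sox2*, *Utf1*, *Dppa3*, *Tdgf1* and *Fbxo15*, with steps between -1.10 and -0.53. *Sox2*, the core factor that is kept in neural cells, had a step of -0.86, and *Foxd3* moved by -2.13 relative to it (adjusted p = 0.107, exact test). *Utf1*, a chromatin factor of pluripotent cells, had a step of -0.81 (difference -2.17, adjusted p = 0.0727, exact test), and *Dppa3*, a germline and early embryo factor, of -0.70 (difference -2.28, adjusted p = 0.0601, exact test). A p-value that misses the threshold does not show that these 5 moved with *Foxd3*, and all 5 fell less on average. *Zfp42*, known as Rex1 and a marker of the naive state, and *Gdf3*, a ligand of the TGF-beta family, had steps of -0.37 and -0.68, and differed with all libraries (adjusted p = 0.0251 and 0.0231, exact test) but not without the 4 (adjusted p = 0.0686 for both, exact test).

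**Figure D3:**
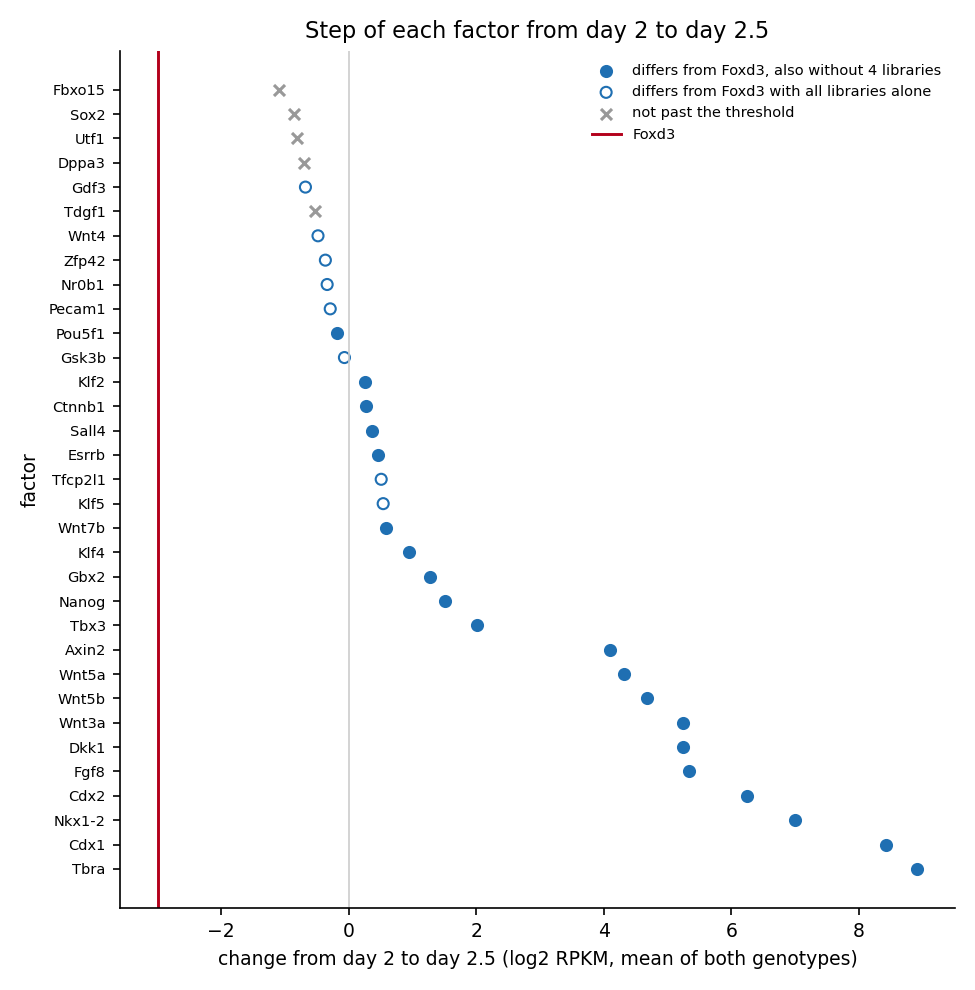
Change from day 2 to day 2.5 in log2 RPKM (mean of both genotypes) for the 33 other factors, 1 row per factor; the red line is the step of *Foxd3*. Filled points differ from *Foxd3* with and without the 4 libraries that stood apart, open points with all libraries alone, and crosses did not pass the threshold. No factor lies left of *Foxd3*, at -2.99, and the nearest, *Fbxo15*, lies at -1.10.

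From day 1 to day 2 *Foxd3* moved down relative to 10 of 33 factors (30.3%), among them *Tbra* (difference -2.30) and *Cdx2* (-1.83). This count was less firm. It was 2 without the 4 libraries that stood apart, and between 3 and 6 without any 1 of wt day 1 replicates 1 or 2, wt day 2 replicates 3 or 4, mat del day 1 replicates 1 or 4, and mat del day 2 replicates 1, 3 or 4. From day 2.5 to day 3 it differed from 0 factors by this exact test (0%; 1 factor at an unadjusted p under 0.05, and 1 called without the 4 libraries), at levels where *Foxd3* had few reads.

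Over the whole course, 16 other factors were at least 1 lower at day 4 than at day 0 in log2 RPKM in both genotypes, all of them genes of pluripotent cells. *Foxd3* changed by -8.25 in wt and -7.28 in mat del cells, the value that chose it, and the next factors were *Klf2* at -6.92 in wt and *Nr0b1* at -5.69 in mat del cells. The shares of change that follow use these end points and carry no test. Because 7 of its 8 day 4 values are those of 0 reads, the change of *Foxd3* on this scale may be larger, and its shares smaller, than given. The shares also depend on the scale. With 1 added to each RPKM they were larger, 42.8% by day 1 and 69.5% by day 2 in wt cells. The other factors were not recomputed in this way.

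By day 1 *Foxd3* had covered 23.1% of its change in wt and 10.9% in mat del cells, and by day 2 it had covered 44.8% and 35.4%. The median over the 16 other factors was 40.2% by day 2 in wt and 42.7% in mat del cells, and 7 and 9 of them were ahead of *Foxd3*, *Nanog*, *Esrrb*, *Klf4* and *Zfp42* in both. Without the 4 libraries *Foxd3* had covered 36.9% by day 2 in both genotypes, against medians of 37.5% in wt and 51.2% in mat del cells, with 8 and 11 factors ahead. By day 2.5, with all libraries, *Foxd3* had covered 80.7% in wt and 76.7% in mat del cells, against medians of 44.7% and 47.7%, and the factors ahead of it were *Klf4* alone in wt, and *Klf4*, *Fbxo15* and *Tfcp2l1* in mat del cells. Without the 4 libraries the share of *Foxd3* by day 2.5 was 80.7% in wt and 58.5% in mat del cells, and 1 and 5 factors were ahead.

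The interval with the largest fall was day 2 to day 2.5 for *Foxd3* in both genotypes, and for 0 of the 16 other factors in either. In wt cells 6 of the others fell most from day 0 to day 1 (*Nanog*, *Esrrb*, *Klf4*, *Sall4*, *Nr0b1* and *Tfcp2l1*) and 7 from day 3 to day 4 (*Pou5f1*, *Klf2*, *Utf1*, *Gdf3*, *Dppa3*, *Pecam1* and *Sox2*). In mat del cells 8 fell most in the first and 6 in the last of these intervals, and 5 and 8 without the 4 libraries. Also without the 4 libraries, the largest fall of *Foxd3* in mat del cells was from day 2.5 to day 3, -2.20 against -1.61 for the interval before it, and *Fbxo15* joined *Foxd3* in wt cells.

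**Figure D4:**
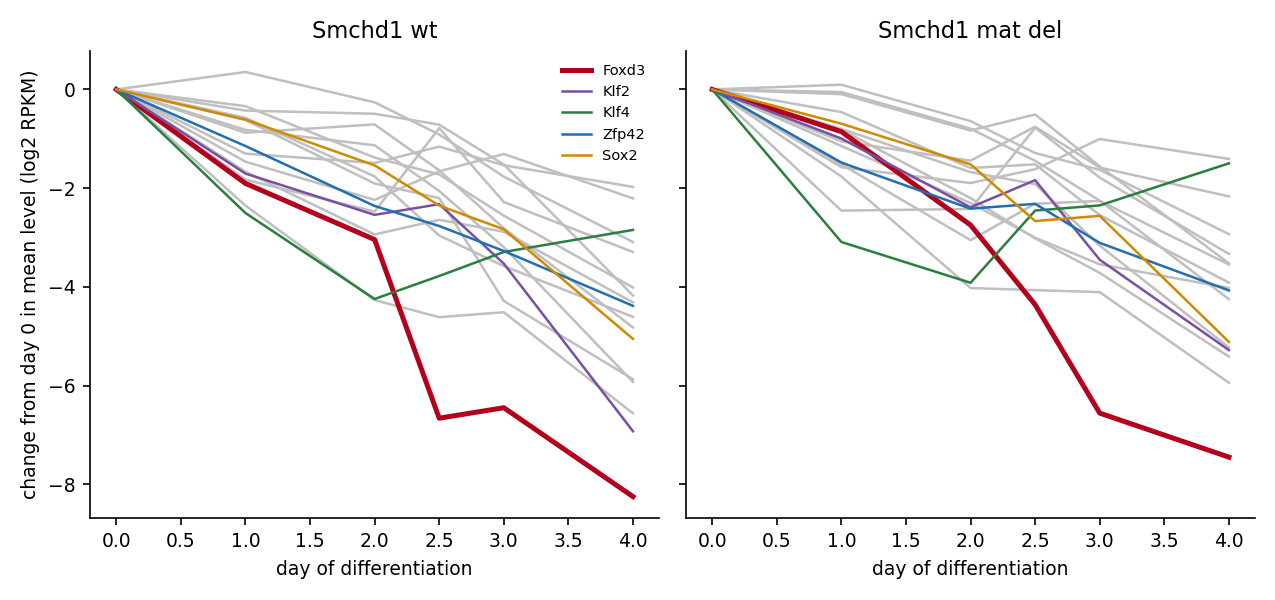
Change from day 0 in group mean log2 RPKM by day of differentiation for the 17 factors that fell by at least 1 in both genotypes, wt left and mat del right, without the 4 libraries that stood apart; *Foxd3* is in red, 4 named factors in colour and the other 12 in grey. *Foxd3* lies among the others up to day 2 and below all of them from day 2.5 on in both panels, where few reads were left and its values are limited by depth.

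The factors most like *Foxd3* over the 12 group means were *Zfp42* (Pearson r = 0.96), *Sox2* (0.92), *Gdf3* (0.90), *Utf1* (0.88) and *Dppa3* (0.88). Without the 4 libraries these values were 0.95, 0.93, 0.92, 0.91 and 0.91, and *Fbxo15* (0.97), *Pecam1* (0.94) and *Tdgf1* (0.94), which lie outside chromosomes 1 to 8, came up among the highest. *Klf2* had r = 0.87, *Esrrb* 0.64, *Nanog* 0.55, *Pou5f1* 0.50 (0.82 without the 4 libraries), *Klf4* 0.41 and *Klf5* -0.14. The least like were *Dkk1* (-0.93), *Wnt5b* (-0.92) and *Cdx2* (-0.88), with *Tbra* at -0.85. All points share the same libraries and the same sequence of days, so these are descriptions with n = 12.

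Among libraries of the same group the likeness was another. After each group's mean was taken away, *Foxd3* correlated most with *Wnt5b* (r = 0.70 over 45 libraries), *Sall4* (0.58), *Nkx1-2* (0.55), *Cdx2* (0.51) and *Tbra* (0.50), and with *Zfp42* and *Sox2* at only 0.20 and 0.08. *Wnt5b* thus ran against *Foxd3* over the days and with it among libraries of a day (r = 0.70 without the 4 libraries too). Depth sets the value of genes with few reads in the same direction, and its part in these correlations was not tested.

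The genotypes were compared on each day, and no difference in *Foxd3* passed the test. Taken day by day from day 0 to day 4, mat del cells differed from wt cells in mean log2 RPKM by -0.67, 0.44, 0.45, 0.41, -0.61 and 0.30 (exact two-sided permutation tests, adjusted p = 0.743 on each day over the 6 days). The genotypes overlapped on every day, also at day 0, where the difference slightly exceeded the SD of each group. The values of days 0 and 4 also chose the gene, by its fall in both genotypes. At day 4, with 1 read in wt and 0 in mat del cells, the comparison was mostly one of depth. The smallest unadjusted p was 0.171 at day 0, and 4 libraries against 3 cannot go below 0.0571, nor 4 against 4 below 0.0286. Over all 34 factors limma called 0 at each day (0%, and 0 without the 4 libraries), with an unadjusted p under 0.05 for 2 factors at day 0 and for 0 on the other days.

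At day 2.5 the result turned on a library that stood apart. Without mat del replicate 3 the difference was 1.80 (exact test, unadjusted p = 0.133, and 4 libraries against 2 can reach no smaller p), with both remaining mat del libraries above all wt libraries. At day 2, without wt replicate 3, it was -0.20 in place of 0.45. At day 0, without mat del replicate 3, it was -0.50, and at day 1, without mat del replicate 4, it was 0.55.

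In 2i + LIF *Foxd3* was counted at 147, 507 and 135 reads in wt lines 1, 2 and 3, and at 629, 444 and 68 reads in mat del lines 1, 2 and 3, from totals of 27.5 to 127 M counts. Scaled with edgeR's TMM factors these were 5.29, 3.90 and 2.83 CPM (counts per M counts) in wt and 5.21, 4.10 and 1.95 in mat del lines. Line 1 was highest and line 3 lowest in both genotypes, and the genotypes overlapped. The line names of these counts had no log2 RPKM values to be checked against, unlike the time course counts, whose names mostly did not match. The lines were independent, so a shared number does not pair them between genotypes. The means were 4.01 ± 1.23 CPM (SD, n = 3) and 3.75 ± 1.66 (SD, n = 3), and edgeR's quasi-likelihood test over 17696 genes gave a log2 difference of -0.07 with an SE of 0.37 (adjusted p = 0.997). The same test called 0 genes in all (0%), 397 genes had an unadjusted p under 0.05 (2.24%), and DESeq2 also called 0, with 460 genes at an unadjusted p under 0.05. *Smchd1*, the targeted gene, was lower in each mat del line than in each wt line, at 63.7 to 90.7 against 107 to 124 CPM (edgeR, adjusted p = 0.992). It was not among the 34 factors, so it could not check the time course labels.

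Of the other *Foxd* genes, *Foxd1* alone passed the expression filter. *Foxd1*, a forkhead gene of kidney stroma and retina, had 2.10 ± 0.40 CPM (SD, n = 3) in wt and 1.88 ± 0.95 (SD, n = 3) in mat del lines, with line 3 lowest in both, and a log2 difference of -0.13 (adjusted p = 0.997, edgeR). *Foxd2* had 0 to 19 counts per line and *Foxd4* 0 to 11. CPM is not corrected for gene length, so these levels are not compared between genes.

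Within 100 kb of *Foxd3* lay 4 genes of the count table, none of which overlapped it. *Gm12688*, on the minus strand from 99653607 to 99654983 and thus transcribed away from *Foxd3* on its upstream side, followed its order of lines within each genotype, with 2.05, 1.61 and 1.28 CPM in wt and 1.61, 1.22 and 0.745 in mat del lines. *Gm12690*, *Gm12682* and the glycosyltransferase gene *Alg6* lay at 2.30 to 4.18, 0.115 to 1.08 and 31.7 to 54.5 CPM. The log2 differences of the 4 genes were between -0.43 and -0.20 (adjusted p = 0.992 for each, edgeR).

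**Figure D5:**
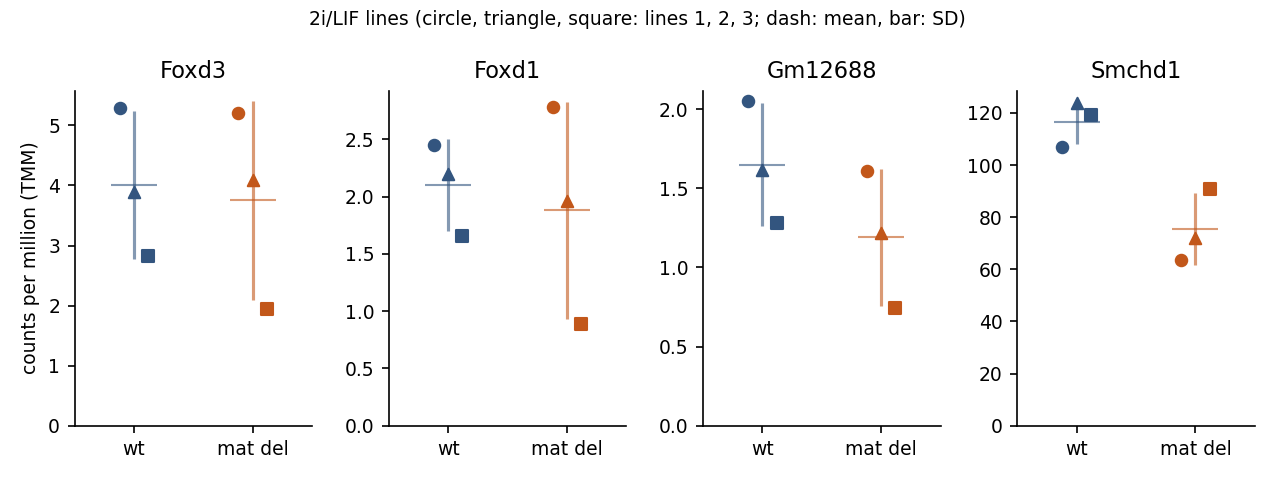
CPM (TMM-scaled, axes from 0) of *Foxd3*, *Foxd1*, *Gm12688* and *Smchd1* in the 6 lines grown in 2i + LIF; circles, triangles and squares are lines 1, 2 and 3, with the mean (dash) and SD (bar) of each genotype. Line 3 is lowest for *Foxd3*, *Foxd1* and *Gm12688* in both genotypes, and for *Smchd1* all wt lines lie above all mat del lines.

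Marker lists were summed to describe the 2i + LIF lines, and since their genes differ in number and length the sums are not compared between lists. The 11 naive genes summed to 2390 to 3034 CPM and the 4 core genes to 2219 to 2387 CPM per line. The 6 neural crest genes, a lineage in which *Foxd3* is used later, summed to 6.95 to 9.34 CPM, the 5 endoderm genes to 6.99 to 9.40 and the 3 two-cell genes to 0.0287 to 0.323. The formative list summed to 263 to 352 CPM, the streak and mesoderm list to 41.6 to 55.5 and the trophoblast list to 13.7 to 22.5. The 4 neural genes summed to 38.7 to 52.4 in wt and 56.2 to 86.7 in mat del lines. Most of this sum was *Nes*, at 33.5 to 46.4 CPM in wt and 49.2 to 80.9 in mat del lines, while *Sox1*, *Pax6* and *Sox3* lay at 1.22 to 2.89 CPM. The test called 0 members of any list, and the median log2 differences of the lists lay between -0.10 and 0.42, against -0.01 over all genes tested.

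*Foxd3* had fewer reads relative to the core factors in 2i + LIF than at day 0, in a comparison added after seeing the data. Within a library, and so free of its scaling, there were 0.848 to 2.22 *Foxd3* reads per 1000 reads of *Pou5f1*, *Nanog*, *Sox2* and *Sall4* together in the 6 lines, with a median of 1.77. In the 7 day 0 libraries there were 6.51 to 37.1, with a median of 11.4, and the highest, mat del replicate 3, was a library that stood apart. The others reached 14.8. The ranges did not overlap, but the day 0 values are among those that chose the gene. These values come from separate tables and from paired-end and single-end libraries, so they were not tested against each other, and medium and library type cannot be told apart.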

How the data were processed

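Polyadenylated RNA of 45 differentiation libraries (single-end) and of 6 mESC lines in 2i + LIF (paired-end) was sequenced by the authors, with stranded and non-stranded kits. Per the methods and the submitters' processing notes, reads were trimmed with Trim Galore 0.4.4, mapped to GRCm38.p6 with HISAT2 2.0.5 and quantified in SeqMonk. The authors deposited log2 RPKM for 34 factors, corrected for library size and transcript length, and raw read counts per gene, without normalization. A second table of log2 RPKM deposited by the authors, for *Hox* genes, was not used.

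Whole reads and depths were recovered with exon lengths of GENCODE M21 (GRCm38). Exact two-sided permutation tests were run in Python 3.11.15 (scipy 1.17.1, numpy 2.4.6, pandas 2.3.3), limma 3.58.1 over the factors of each day, and edgeR 4.0.16 (TMM, filterByExpr, quasi-likelihood test) over the 2i + LIF counts, in R 4.3.3, with Benjamini-Hochberg adjustment at 0.05. DESeq2 1.42.0 and the other alternatives are given below. The permutation tests without a block, limma and edgeR's quasi-likelihood test were checked on simulated data, and the other alternatives were not. Plots were drawn with matplotlib 3.10.9. *Foxd3*, the marker lists and the tests were chosen with earlier results of these data known. Named in full were *Foxd3*, *Smchd1*, the 5 factors most and the 3 least like *Foxd3* over the group means, *Pou5f1*, *Nanog*, *Sox2*, *Klf2*, *Klf4*, *Klf5*, *Esrrb* and *Tbra*, and in 2i + LIF the *Foxd* genes, genes within 100 kb and marker lists. The exclusion of 4 libraries and the comparison with core factor reads were added after seeing the data. Depth was 1.47 to 127 M (mega) reads in the time course and 27.5 to 127 M counts in 2i + LIF. Late *Foxd3* values rest on 0 to 26 reads, and depth sets the log2 RPKM of those with 0 reads.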

Additional observations from a re-analysis of the deposited data

Results flagged for a closer look

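The count table was not used for the time course, but its columns that carry day 4 names hold *Foxd3* counts of up to 60, in the column named for mat del replicate 2, whereas the log2 RPKM values of all 8 day 4 libraries together correspond to 1 read. The item stands out because it is a signal in data that no comparison here uses. That column equals the recovered reads of all 34 factors in mat del day 2 replicate 4, and the *Foxd3* count equalled the recovered reads of the same name in 9 of 45 libraries. In groups of 4 libraries, no *Foxd3* value lay apart from the others by Dixon's test, the nearest being wt day 0, where the ratio of the gap to the range was 0.798, below the 95% critical value.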

How the results depend on the processing

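Of 509 values computed under alternatives over 41 results, 441 were counted as unchanged. For tests this means the same direction and side of the threshold. For counts of calls, shares of change and correlations it means a shift within a set margin. No genotype difference passed the threshold under any alternative, but its sign did not hold on days 1, 2, 2.5 and 4, on day 2.5 only without mat del replicate 1 (-0.46) or 2 (-0.12). At day 4 it was -0.022 with 1 added to RPKM, -0.092 with 0.1 added, -0.057 from recovered reads and -0.57 in line 1 only. At day 2 it was -0.26 without libraries at 0 reads and -0.20 without the 3 libraries of low counted share or all 4 that stood apart. At day 1 it was -0.54 between medians and -0.58 in line 1 only. The cause was not tested.

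The step from day 2 to day 2.5 lost its call in wt only (-2.97), in mat del only (-3.01) and without the 3 or the 4 libraries (-2.62). In wt only the exact test gave an unadjusted p = 0.0857 and could reach 0.0286. In mat del only it gave 0.171 and could reach 0.0571. The libraries of the 2 days overlapped in both genotypes. The step from day 2.5 to day 3 was 0.21 in wt only. With 1 added to RPKM, *Foxd3* fell below 5 factors from day 1 to day 2, and below 2 and above 2 from day 2.5 to day 3, the latter 1 and 1 with 0.1 added. In either genotype alone 0 factors were called from day 1 to day 2 and 0 from day 2 to day 2.5. The 0 of wt in the first step and of mat del in the second were fixed in advance. There the exact test cannot go below p = 0.0571, and in the other 2 cases it cannot go below 0.0286 before adjustment. From day 1 to day 2 the count was 3 without the 3 libraries, 5 without the mat del library lacking reads on other chromosomes and 2 without all 4, and from day 2.5 to day 3 it was 1 without the 3 or the 4 libraries. The share of change in wt by day 2.5 was 98.1% with 1 added and 93.3% with 0.1 added, and by day 3 it was 97.5% and 91.4%. In mat del cells it was 23.8% by day 1 and 60.0% by day 2 with 1 added. In wt cells these shares were 42.8% and 69.5%, counted as unchanged because the set margin was wide.

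With the replicate number as a block, the step from day 1 to day 2 was called (-1.46, adjusted p = 0.0469, exact test), that from day 2 to day 2.5 was -3.33 (adjusted p = 0.0469, exact test), and the factors that *Foxd3* fell below numbered 6, all among the 10, and 28, of which 24 were among the 28 without the block. In the latter step *Klf4*, *Zfp42*, *Gsk3b* and *Wnt4* were lost and *Sox2*, *Utf1*, *Dppa3* and *Tdgf1* (adjusted p = 0.0455 each, exact test) were gained. The block changed no other call. The genotype difference in the change from day 0 to day 4, taken per replicate number with no mat del replicate 4, was 0.87 and is given without a test, since these days chose the gene, and with the block, which leaves out wt replicate 4, it was -0.056. The numbers were not taken to pair the samples, since deviations of same-numbered libraries correlated at 0.328 to 0.672 between genotypes at day 0, but from -0.400 to 0.634 at day 3, and at -0.137 to 0.482 between days 2 and 2.5. In 2i + LIF edgeR's exact test called 1 gene higher (*Magel2*, log2 4.33, adjusted p = 0.0322) and 1 lower (*Gemin5*, -0.63, adjusted p = 0.0424).

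Leaving out 1 library at a time, the genotype difference ranged from -0.98 to -0.50 at day 0, -0.68 to 1.15 at day 1, -0.26 to 1.25 at day 2, -0.46 to 1.80 at day 2.5, -1.08 to -0.26 at day 3, -0.48 to 1.12 at day 4, -0.39 to 0.23 in 2i + LIF and -0.056 to 2.00 for the change from day 0 to day 4. The steps ranged from -2.35 to -1.43, from -3.42 to -2.29 and from -0.99 to 0.14. The step from day 2 to day 2.5 lost its call without wt day 2 replicate 1 (-2.71) or 2 (-2.59), wt day 2.5 replicate 2 (-2.91) or 4 (-2.87), or mat del day 2.5 replicate 2 (-3.25) or 3 (-2.29). The step from day 1 to day 2 was called without wt day 1 replicate 4 (-2.35, adjusted p = 0.0171, exact test). The factors that *Foxd3* fell below numbered 3 to 10, 26 to 30 and 0 to 2, and those it rose above 0. In 2i + LIF 0 genes were called without any 1 line.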
